A study of Homo sapiens with 16 samples.

Results

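Ribosome-protected fragments (RPF, the stretches of mRNA that a translating ribosome shields from nuclease, called footprints here) were set against total RNA, gene by gene, to describe which mRNAs carried many or few footprints for their RNA level. All 16 of the 16 libraries of the study entered, 8 of footprints and 8 of total RNA. The cells were MDA-MB-231, a line established from a human breast cancer of the triple-negative type, and had no further treatment. All cells carried CRISPR interference (CRISPRi, a repressor that a guide RNA brings to a gene), aimed at eGFP as the control target or at tRNA-Ile-GAU. Each also carried an overexpression construct, either a control or one for tRNA-Ile-UAU. The 4 conditions were therefore eGFP CRISPRi with the control construct, eGFP CRISPRi with the tRNA-Ile-UAU construct, tRNA-Ile-GAU CRISPRi with the control construct, and tRNA-Ile-GAU CRISPRi with the tRNA-Ile-UAU construct (the double modulation), with 2 libraries of each assay in each. The labels do not say that the 2 libraries came from separate cultures, so p-values measure the spread between these libraries, which may be technical. They also do not say whether the lines were clones, they name the source a xenograft cell line, and they give the molecule of all 16 libraries as polyA RNA.

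The genes kept were those with a line in any footprint file, 13804 of the 26485 symbols in the total RNA files. A symbol missing from a footprint file was given a count of 0. Levels are in CPM, the usual scaling of a count by its library total, here the total on the kept symbols, which came to 358340 to 938909 per footprint library and 2447431 to 5307928 per total RNA library. The readout is the log2 ratio of footprint CPM to total RNA CPM, estimated over the 16 libraries with condition as a covariate. A value of 0 means that a gene took the same share of both assays, and a value of 1 that its share was 2-fold higher in footprints. A filter on low counts left 10799 genes for the test. The ratio compares a gene with itself in the other assay and is not corrected for length: footprints lie on the coding part of an mRNA and total RNA reads anywhere on it, and whether both assays were counted over the same parts of a gene is not given in the sources used here.

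As background, the number of ribosomes on an mRNA depends on how often translation starts on it and on how fast it proceeds, and the number of footprints per RNA is widely read as translational efficiency. mRNAs of ribosomal proteins and many translation factors start with a C and a run of pyrimidines (a terminal oligopyrimidine or TOP start), through which growth signals set their translation. mRNAs such as ATF4 have upstream open reading frames (uORFs), short reading frames before the main one that divert ribosomes. Ferritin mRNAs carry an iron-responsive element to which a repressor binds when iron is scarce, and the mRNAs of the replication-dependent histones end in a stem-loop in place of a poly(A) tail.

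Before the results, 1 group of libraries needs mention. The 2 total RNA libraries of the double modulation differed more from each other than those of any other total RNA group. Their chi-square per degree of freedom over genes was 15.8, against 1.35 to 2.48 in the other total RNA groups and 1.15 to 1.67 in the footprint groups. This measure is set against counting error, so the same spread gives a higher value in deeper libraries. Their median absolute log2 difference was 0.241, against 0.136 to 0.159 in the other total RNA groups. In the footprint groups, which had fewer counts, it was 0.248 to 0.316. The ribosomal protein genes were among those that differed. Relative to the mean of the 8 total RNA libraries, their median level was 0.87 higher (log2) in replicate 1 of the double modulation and -0.32 in replicate 2. It was -0.50 in replicate 1 of eGFP CRISPRi with the tRNA-Ile-UAU construct and between -0.10 and 0.11 in the other 5. The 8 footprint libraries stayed between -0.14 and 0.10. Some results that rest on these libraries are given with and without them: the ribosomal subunit medians, OAZ1, FTL and the test between conditions. Other named genes also differed between the 2 libraries and are given as fitted over all 16. Among these, total RNA in replicates 1 and 2 of the double modulation was 190 and 30.8 CPM for EIF6 and 541 and 140 CPM for ALDOA. Markers fixed for the cell line and for other cell types were read beside its label. The 10 mesenchymal markers summed to 18920 to 21242 CPM in footprints and 5769 to 6187 CPM in total RNA, against 477 to 583 and 286 to 493 CPM for 10 luminal markers, 132 to 185 and 8.54 to 36.0 CPM for 10 immune markers, 101.1 to 195.5 and 27.5 to 54.3 CPM for 8 endothelial markers and 13.2 to 27.9 and 4.49 to 15.0 CPM for 8 fibroblast markers. VIM alone had 11443 to 13913 CPM of the mesenchymal sum in footprints. A mean of at least 1 CPM in footprints was reached by 9 mesenchymal, 5 luminal, 4 immune, 3 endothelial and 3 fibroblast markers. In total RNA these numbers were 9, 5, 2, 3 and 2. The luminal marker TFF1, the immune markers CD3E and TYROBP, the endothelial marker CDH5 and the fibroblast markers DCN and POSTN had 0 counts in all 16 libraries.

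Footprint and total RNA levels followed each other only in part. Across the 10799 genes, the Spearman correlation between mean log2 footprint and total RNA levels was 0.607 to 0.656 in the 4 conditions; this describes genes, which are not independent replicates. The median log2 ratio was -0.14, the 25th and 75th percentiles were -1.24 and 1.14, and the 5th and 95th -2.83 and 3.03. Footprints were at least 2-fold higher than total RNA for 2951 genes (27.3% of those tested) and at least 2-fold lower for 3246 (30.1%), at an adjusted p under 0.05 by edgeR's quasi-likelihood test. Either call was made for 57.4%, an adjusted p under 0.05 at any size was found for 85.5%, and the 8 footprint and 8 total RNA values did not overlap for 62.3%. These shares are high, so a list of genes is read below against them and against the median of all tested genes. The plot of footprint against total RNA level shows 4 of the lists leaving the diagonal. The replication-dependent histones lie far above it and most respiratory chain genes above it. Most zinc finger genes and most mRNAs of the uORF list lie below it.

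**Figure D1:**
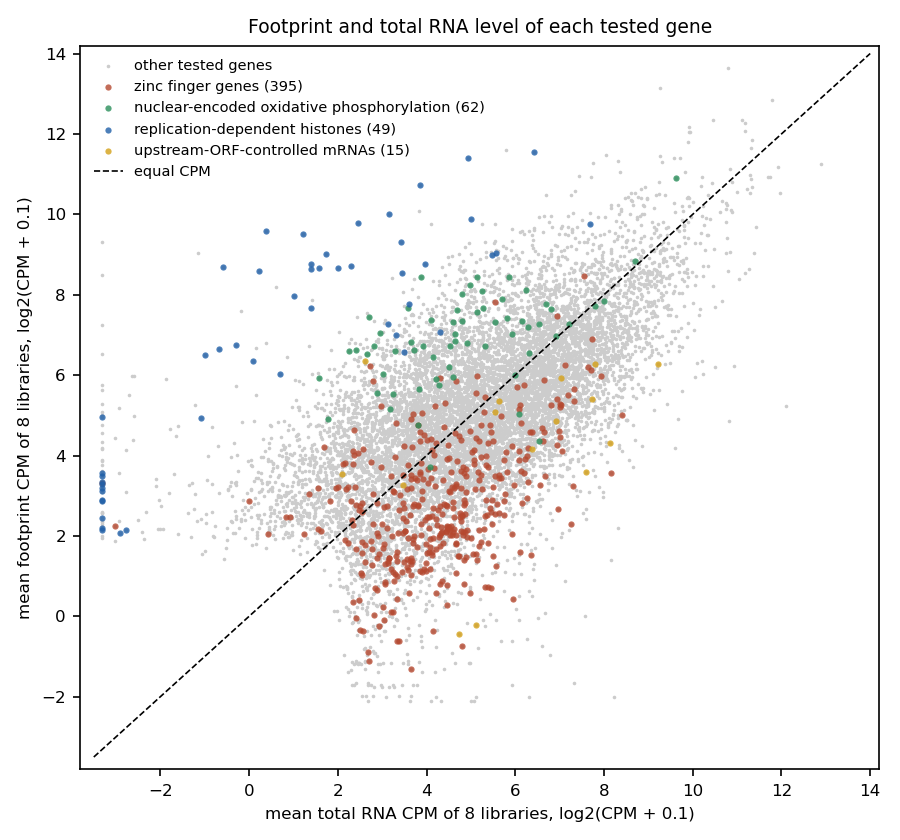
Mean footprint CPM (vertical) against mean total RNA CPM (horizontal) of the 10799 tested genes, each as log2(CPM + 0.1) over 8 libraries, with 4 gene lists coloured and the number tested in brackets; the dashed line marks equal CPM. The points at the left edge are the 44 tested genes with 0 total RNA counts in all 8 libraries, 12 of them replication-dependent histones.

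The replication-dependent histones, which package newly made DNA and are produced in S phase, had the highest ratio of all lists. The 57 kept genes of the list of 65 took 1.74 to 2.33% of all footprint counts and 0.0508 to 0.0661% of the total RNA counts, so that the ranges of the 8 libraries of each assay were far apart. Of the 57, 49 passed the filter on low counts, and all 49 were called higher in footprints, against 27.3% of all tested genes. In 43 of the 49 the 8 footprint and 8 total RNA values did not overlap, against 62.3% of all tested genes. Members that passed only through their footprints had to be higher, so both counts are descriptions of those 49. Their median log2 ratio was 6.66, or 6.34 with the 12 members that had no total RNA count set at the floor of 3 counts over 8 libraries; with no filter, the 57 had a median of 6.34 too.

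HIST1H1C (chr6:26055740-26056470, GRCh38.p14), a linker histone, ranged over 2507 to 3507 CPM (median 3067) in footprints and 71.5 to 102 CPM (median 83.4) in total RNA. Its log2 ratio was 5.14 ± 0.07 (SE back-calculated from edgeR's quasi-likelihood test, adjusted p = 8.92e-23). HIST1H4C (chr6:26103933-26104337), one of the genes for core histone H4, had 654 to 1041 CPM (median 911) and 2.83 to 7.5 CPM (median 5.62), a log2 ratio of 7.38 ± 0.12. In both genes every footprint library was above every total RNA library, in all 4 conditions. The 2 members with the highest log2 ratio were HIST1H2AB (9.26 ± 0.14) and HIST1H3H (9.20 ± 0.14), with 17 and 34 total RNA counts in all 8 libraries together and 2207 and 4134 footprint counts. The 2 lowest, among members with a mean of at least 20 CPM, were HIST1H4H (2.07 ± 0.06) and HIST1H2BK (2.78 ± 0.10). HIST1H4H had 676 to 977 CPM (median 867) in footprints and 169 to 230.4 CPM (median 212) in total RNA, apart but closer than in the members above. Whether the stem-loop ends of these mRNAs and the polyA label of the libraries have a part in the ratio was not tested.

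The replication-independent histones, variants made throughout the cell cycle from mRNAs that mostly end in a poly(A) tail, stood closer to the other genes. The 11 kept genes took 0.194 to 0.226% of footprint counts and 0.191 to 0.217% of total RNA counts, overlapping ranges. Of 9 tested, 5 were called higher and 1 lower, with a median log2 ratio of 1.32. H2AFX, the variant that marks DNA breaks when phosphorylated, was at 3.96 ± 0.18 and the linker variant H1FX at 3.32 ± 0.17. H3F3B, a gene for H3.3, was at -0.92 ± 0.09, with 150.2 to 310.2 CPM (median 225) in footprints and 400.3 to 449 CPM (median 420.5) in total RNA. H2AFV, a gene for an H2A.Z variant, was the lowest at -2.94 ± 0.07; its 78.2 to 130.4 CPM (median 105) in footprints lay below all 8 of its total RNA values, 651 to 1045 CPM (median 797).

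The replication-dependent histones share sequence features that the ratio did not use. The 250 bases before the annotated start were searched for TATAAA on the gene's strand and for CCAAT on either strand. Of the 39 tested members with a promoter in the RefSeq table, 27 (69.2%) held TATAAA and 35 (89.7%) held CCAAT. Of 8 replication-independent histones with a promoter listed, 4 (50%) held TATAAA and 6 (75%) held CCAAT. Among all 8979 tested genes with a promoter, 5.19% held TATAAA and 35.9% CCAAT, and among all 27305 promoters listed it was 11.1% and 33.0%. A match is a description of letters, not a binding site, and neighbouring matches of the 2 motifs can overlap by 1 base. The 100 bases before the start of 4 members are shown to give these letters in place: HIST1H3H, HIST1H2AB, HIST1H1E and HIST1H1C. The first 2 had the highest ratios. The linker histones HIST1H1E (6.47 ± 0.08) and HIST1H1C lay below the list's fitted median of 6.66. HIST1H1E lay above the median of 6.34 with bounds, and HIST1H1C below it. HIST1H1C has no TATAAA in these bases (RefSeq, GRCh38.p14, 5′ to 3′ along the gene's strand; capitals mark TATAAA, and CCAAT or its complement ATTGG).
HIST1H3H (chr6:27809951-27810050, plus strand): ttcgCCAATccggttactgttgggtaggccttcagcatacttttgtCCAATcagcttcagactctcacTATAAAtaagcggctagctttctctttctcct
HIST1H2AB (chr6:26033619-26033718, minus strand): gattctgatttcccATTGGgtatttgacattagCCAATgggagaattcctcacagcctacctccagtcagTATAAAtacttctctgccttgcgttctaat
HIST1H1E (chr6:26156229-26156328, plus strand): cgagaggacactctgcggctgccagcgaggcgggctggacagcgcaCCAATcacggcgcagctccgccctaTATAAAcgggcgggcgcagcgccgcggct
HIST1H1C (chr6:26056471-26056570, minus strand): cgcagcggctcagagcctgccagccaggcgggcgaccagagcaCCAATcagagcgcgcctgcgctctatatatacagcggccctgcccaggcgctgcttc

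**Figure D2:**
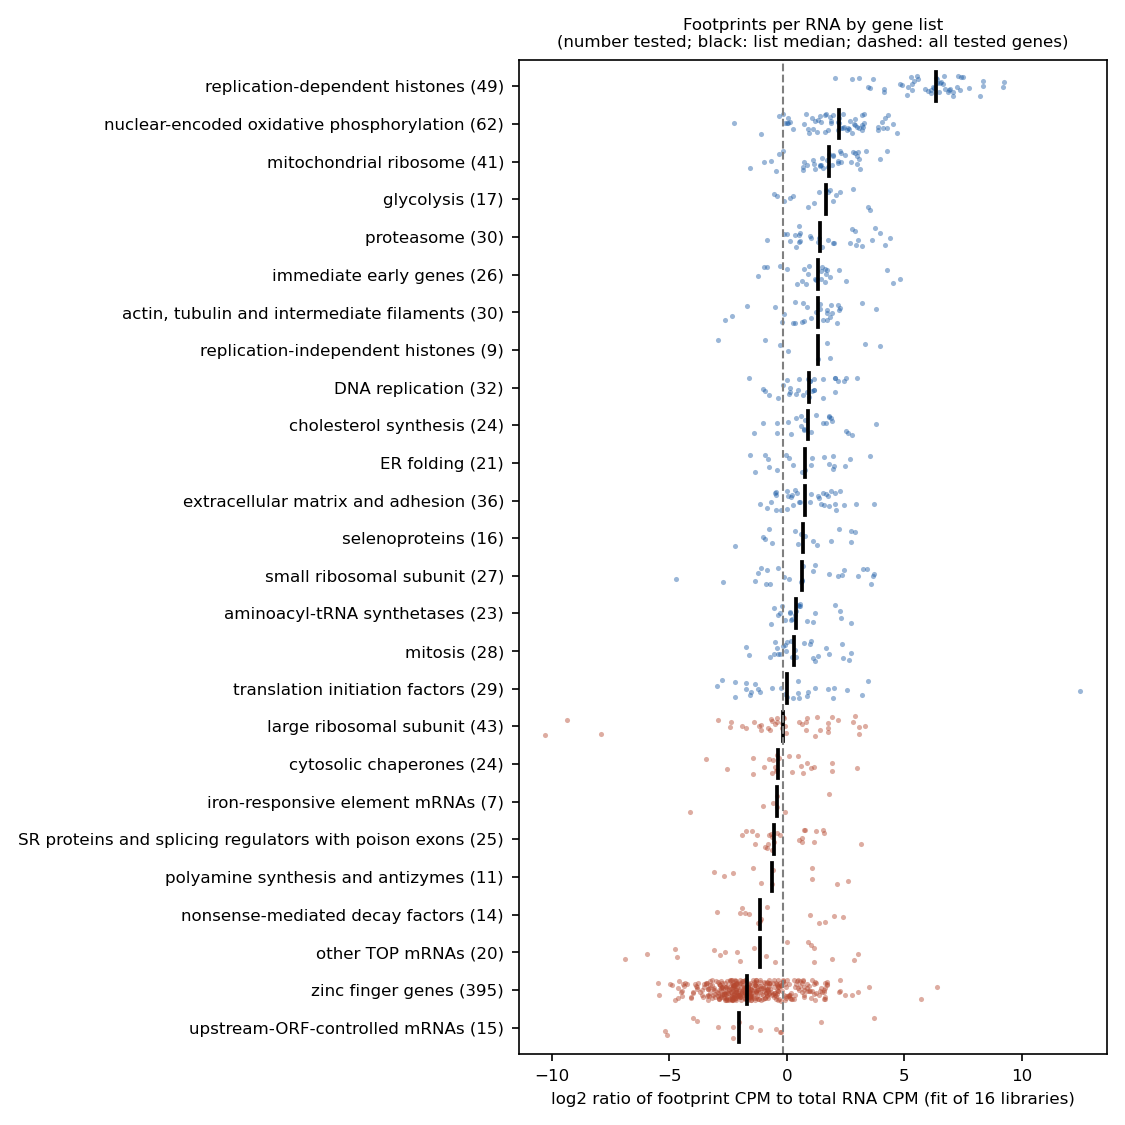
Log2 ratio of footprint to total RNA CPM (horizontal) of each tested gene of 26 lists, 1 dot per gene, with genes that had no total RNA count placed at their lower bound; black bars are list medians and the dashed line is the median of all 10799 tested genes, -0.14. The replication-dependent histones lie apart at the top with a median of 6.34 as plotted, and the zinc finger and uORF lists lie lowest at -1.68 and -2.03.

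Genes of energy metabolism and protein turnover had many footprints for their RNA. Of 62 nuclear genes of oxidative phosphorylation, which build the respiratory chain and the ATP synthase, 48 were called higher and 2 lower, with a median log2 ratio of 2.20 against -0.14 for all tested genes. Together they took 1.01 to 1.11% of footprint counts and 0.361 to 0.425% of total RNA counts. COX7B, a subunit of cytochrome c oxidase, had 119 to 231 CPM (median 170.0) in footprints and 3.62 to 12.2 CPM (median 5.99) in total RNA, a log2 ratio of 4.68 ± 0.17. CYC1, cytochrome c1 of complex III, was at 4.54 ± 0.17. NDUFA5, a subunit of complex I, lay at the other end with -2.25 ± 0.12, and its 9.59 to 31.4 CPM (median 21.4) in footprints was below all 8 total RNA values, 65.6 to 114 CPM (median 94.4). SDHC of complex II was the other gene called lower, at -1.08 ± 0.12.

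Of 41 proteins of the mitochondrial ribosome, 31 were called higher and 1 lower, with a median of 1.78. They took 0.364 to 0.392% of footprint counts and 0.136 to 0.185% of total RNA counts. MRPL13 was highest at 4.28 ± 0.12 and MRPL19 lowest at -1.59 ± 0.09. The proteasome, which degrades marked proteins, had 18 of 30 called higher and 0 lower (median 1.42), led by PSMB3 of its core at 4.37 ± 0.21 and PSMD8 of its lid at 4.18 ± 0.12. Its PSMD7 was at -0.12 ± 0.06 with overlapping values and an adjusted p of 0.0816. Glycolysis had 11 of 17 called higher and 0 lower (median 1.67). SLC2A1, a glucose transporter, was at 3.53 ± 0.09 and aldolase A (ALDOA) at 3.46 ± 0.19, whereas LDHA, which makes lactate, was at -0.43 ± 0.06.

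Structural and secreted proteins also lay above the middle. Actin, tubulin and intermediate filament genes had 17 of 30 called higher and 3 lower (median 1.32). VIM (chr10:17228241-17237593), the mesenchymal intermediate filament and the most abundant gene in footprints, is counted with the TOP mRNAs and not in this list; it had 11443 to 13913 CPM (median 12943) in footprints and 1713 to 1786 CPM (median 1772) in total RNA, a log2 ratio of 2.86 ± 0.04. ACTB was at 1.88 ± 0.06. TPM3, a tropomyosin, and TMSB10, which binds actin monomers, went the other way at -2.64 ± 0.07 and -2.34 ± 0.14. Extracellular matrix and adhesion genes had 17 of 36 called higher and 1 lower (median 0.77), with TIMP1, an inhibitor of matrix proteases, at 3.71 ± 0.20 and LAMA3, a laminin chain, at -1.15 ± 0.11. Immediate early genes had 15 of 26 called higher and 1 lower (median 1.34). Of the 26, 23 were in the shortest of 5 bins of genomic span, described below. Their median there was 1.44, near the 1.31 of the genes of no list in that bin. KLF2 and JUNB, with total RNA medians of 1.96 and 1.87 CPM, were at 4.82 ± 0.21 and 4.50 ± 0.22.

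Of the other lists, DNA replication genes had 13 of 32 called higher and 2 lower (median 0.94), cholesterol synthesis had 12 of 24 and 2 (0.88), protein folding in the endoplasmic reticulum (ER) 10 of 21 and 2 (0.79), and selenoproteins, whose mRNAs read a stop codon as selenocysteine, 7 of 16 and 2 (0.67). Mitosis genes had 10 of 28 called higher and 2 lower (0.30). The aminoacyl-tRNA synthetases, which charge tRNAs with their amino acids, had 6 of 23 called higher and 0 lower (median 0.38), a share of higher calls (26.1%) near that of all tested genes. IARS, the cytosolic isoleucine enzyme, had 536 to 653 CPM (median 569) in footprints and 704 to 786 CPM (median 722) in total RNA, a log2 ratio of -0.36 ± 0.05 (adjusted p = 1.39e-06) that misses the 2-fold limit, and its mitochondrial counterpart IARS2 was at -0.69 ± 0.07. Chaperones, most of them cytosolic, had 5 of 24 called higher (20.8%) and 4 lower (16.7%), with a median of -0.37. Splicing regulators with poison exons had 5 of 25 called higher (20%) and 5 lower (20%), with a median of -0.55. Each of these shares is below that of all tested genes, 27.3% higher and 30.1% lower. The chaperones also count the mitochondrial HSPD1, HSPE1 and HSPA9, and HSPD1 (-2.55) and HSPE1 (-3.44) are among the 4 called lower. HSP90AA1 was at -1.44 ± 0.06 and BAG3, a co-chaperone of HSP70, at 1.93 ± 0.05.

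mRNAs known for control by upstream reading frames had the lowest median of all lists, -2.03. Of 17 kept genes, 15 were tested, 10 were called lower (66.7%, against 30.1% of all tested genes) and 2 higher. All 17 together took 0.048 to 0.0567% of footprint counts and 0.193 to 0.213% of total RNA counts. ATF4 (chr22:39520559-39522686), the transcription factor of the integrated stress response, had 5.58 to 17.2 CPM (median 12) in footprints and 183 to 221 CPM (median 190.1) in total RNA, a log2 ratio of -3.98 ± 0.12 (adjusted p = 1.39e-17). SLC35A4 was at -5.18 ± 0.34 and ATF5, a stress factor related to ATF4, at -5.10 ± 0.49; each had 0 footprints in several libraries, with a footprint median of 0.589 and 0 CPM. In these 3 genes every total RNA library exceeded every footprint library.

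IBTK (-3.81 ± 0.11), MDM2, the ubiquitin ligase of p53 (-2.93 ± 0.07), and MIEF1 (-2.27 ± 0.13) followed. The 2 regulatory subunits that reverse eIF2 phosphorylation, PPP1R15A and PPP1R15B, were at -2.03 ± 0.14 and -1.54 ± 0.08. The 2 genes called higher were CEBPB, a transcription factor made in several forms from 1 mRNA, at 3.69 ± 0.17, and TRIB3 at 1.45 ± 0.25. CEBPB had 68.3 to 97.9 CPM (median 78.8) in footprints and 3.08 to 9.8 CPM (median 5.25) in total RNA, and TRIB3 overlapped, with 6.04 to 15.3 CPM (median 12.3) and 3.19 to 6.22 CPM (median 3.67). DDIT3, a target of ATF4, was at -0.23 ± 0.22 (adjusted p = 0.327) and UCP2 at -0.27 ± 0.20 (adjusted p = 0.203), both with overlapping values. Whether footprints on the upstream frames were counted for a gene is not given in the sources used here. Among the 7 members with at least 10 counts in every footprint library the median was -1.16.

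Polyamine genes, some of which also have upstream frames or a programmed frameshift, split in 2 directions: of 11 tested, 4 were called higher and 5 lower (median -0.63). SMS, spermine synthase (-3.09 ± 0.09), AZIN1, an inhibitor of the antizymes (-2.69 ± 0.07), AMD1, which makes the aminopropyl donor (-2.31 ± 0.09), SAT1, which acetylates polyamines (-1.43 ± 0.11), and ODC1, the first enzyme of the pathway (-1.12 ± 0.08), were called lower. SRM, spermidine synthase (2.61 ± 0.13), and PAOX, a polyamine oxidase (2.14 ± 0.35), were called higher with values apart. OAZ1, the antizyme whose mRNA needs the frameshift, was called higher at 1.08 ± 0.23 with overlapping values, 153 to 214 CPM (median 169) in footprints and 35.2 to 184 CPM (median 78.1) in total RNA; without replicate 2 of the total RNA double modulation it was 0.92 and missed the 2-fold limit. AZIN2 (1.08 ± 0.34) was called higher with overlapping values, and by eGFP CRISPRi with the control construct alone it was -0.31.

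Of 7 tested mRNAs with an iron-responsive element, 1 was called higher and 2 lower (median -0.42). The 2 ferritin subunits, which store iron, were the lowest. FTH1, the heavy chain (chr11:61964285-61967634), had 4.83 to 22.3 CPM (median 12.3) in footprints and 197 to 282 CPM (median 209) in total RNA, a log2 ratio of -4.15 ± 0.16 (adjusted p = 5.1e-16). FTL, the light chain, had 49.5 to 103 CPM (median 73.6) in footprints and 54.6 to 462 CPM (median 131) in total RNA, overlapping, and a log2 ratio of -1.01 ± 0.34 (adjusted p = 0.00858). Its highest total RNA value, 462 CPM, was replicate 1 of the double modulation, and without that library the ratio was -0.48 (adjusted p = 0.0107) and missed the 2-fold limit. Both ferritins have many pseudogenes named after them, 27 for FTH1 and 20 for FTL; their part in the ratio was not tested. TFRC, the receptor that takes up iron, had 751 to 963 CPM (median 849.7) in footprints and 847 to 967 CPM (median 881) in total RNA and a log2 ratio of -0.06 ± 0.05 (adjusted p = 0.277).

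**Figure D3:**
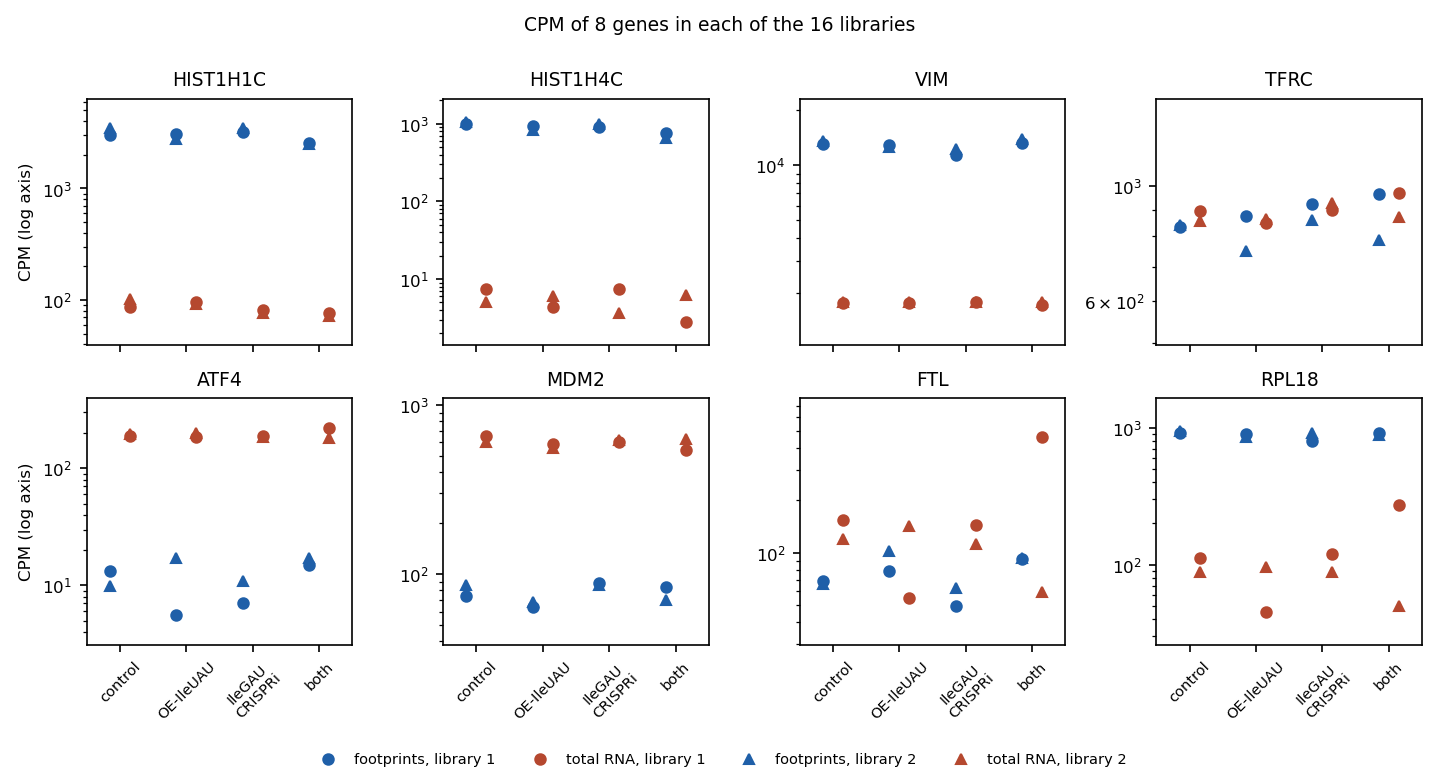
CPM on a log axis (vertical) of 8 genes in the 16 libraries, by condition (horizontal; control is eGFP CRISPRi with the control construct, both is the double modulation); blue is footprints, red total RNA, circles library 1 and triangles library 2 of a group. HIST1H1C, HIST1H4C and VIM have all footprint points above all total RNA points, ATF4 and MDM2 the reverse, TFRC overlaps, and in FTL and RPL18 the highest total RNA point is library 1 of the double modulation, at 462 and 271 CPM.

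The genes with a ZNF symbol, mostly transcription factors with tandem zinc fingers, formed the largest list below the middle. Of 470 kept, 395 were tested, 262 were called lower (66.3%, against 30.1% of all tested genes) and 32 higher (8.10%, against 27.3%). All 470 took 0.49 to 0.584% of footprint counts and 1.25 to 1.35% of total RNA counts. The median log2 ratio of the 395 was -1.68, with quartiles of -2.46 and -0.53. Most had few footprints: 41 had at least 10 counts in every footprint library, and their median was -0.72 where that of all 5792 such genes was 0.25. ZNF621 had 0 to 14.1 CPM (median 4.82) in footprints and 139 to 162 CPM (median 154) in total RNA (-4.97 ± 0.20), and ZNF736 was at -5.45 ± 0.28. At the other end, among members with a mean of at least 20 CPM in the higher assay, were ZNF786 (3.48 ± 0.20) and ZNF574 (3.04 ± 0.17), with every footprint value above every total RNA value. Factors of nonsense-mediated decay, which removes mRNAs with early stop codons, were also mostly low, with 8 of 14 called lower and 4 higher (median -1.14); SMG1, its kinase, was at -2.97 ± 0.08 and SMG9, which regulates that kinase, at 2.38 ± 0.09.

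The translation machinery had calls in both directions, as did all tested genes, of which 27.3% were called higher and 30.1% lower. Of 47 listed large-subunit proteins of the cytosolic ribosome, 43 were tested, with 13 called higher (30.2%) and 12 lower (27.9%, median -0.17). Of 32 listed small-subunit proteins, 27 were tested, with 12 called higher (44.4%) and 5 lower (18.5%, median 0.63). The other listed members have no line in any footprint file, so they enter neither the counts nor the medians. The large-subunit median was 0.05 without replicate 1 of the total RNA double modulation and -0.26 without replicate 2, and the small-subunit median 0.91 and 0.48. Per condition, the large-subunit median ran from -0.49 in the double modulation to 0.40 in eGFP CRISPRi with the tRNA-Ile-UAU construct, and the small-subunit median from 0.40 to 1.29; these are the 2 conditions whose total RNA libraries stood apart for ribosomal proteins, and their part in this was not tested. Members spanned the scale. RPL18 had 803 to 949 CPM (median 915) in footprints and 45 to 271 CPM (median 91.9) in total RNA (3.08 ± 0.24), with 271 CPM in replicate 1 of the double modulation and 119 CPM or less in the other 7. FAU, which encodes RPS30, was at 3.71 ± 0.22 and RPS13 at 3.69 ± 0.19. RPS6, the subunit that S6 kinases phosphorylate, had 458 to 664 CPM (median 567) in footprints and 1331 to 1530 CPM (median 1432) in total RNA (-1.36 ± 0.06). RPLP0 of the ribosomal stalk was at -0.12 ± 0.25 with overlapping values (adjusted p = 0.655).

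RPL9 and RPL7 were the 2 lowest genes of all. RPL9 had 1 footprint in all 8 libraries and 8497 total RNA counts, a ratio 1664-fold lower in CPM (exact 95% interval for counting error 299 to 65725). RPL7 had 1 and 4508, 883-fold lower (interval 158 to 34873), and RPL22 had 4 and 5322. These 3 genes have 31, 61 and 22 pseudogenes named after them. RPS3A and TMSB4X, which also code for proteins, have no line in any footprint file at 1439 and 1779 mean total RNA counts per library.

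Of 20 other mRNAs known for a TOP start, 6 were called higher and 10 lower (median -1.14). VIM is 1 of the 6, and its annotated start has no run of pyrimidines in the search given below. EEF1A1 (chr6:73515750-73521032), the factor that brings charged tRNAs to the ribosome, had 16.5 to 54.7 CPM (median 36.1) in footprints and 4061 to 4913 CPM (median 4358) in total RNA (-6.88 ± 0.11). EEF2, which moves the ribosome along, had 3084 to 4136 CPM (median 3552) and 809 to 1222 CPM (median 880.4) (1.92 ± 0.07), in the opposite direction. HNRNPA1, an RNA-binding protein, was at -5.94 ± 0.11 and GNB2L1 (now RACK1), a scaffold protein on the ribosome, at 3.01 ± 0.11. EEF1A1 and HNRNPA1 have 50 and 75 named pseudogenes, GNB2L1 has 3 and EEF2 has 0. Translation initiation factors had 8 of 29 called higher (27.6%) and 11 lower (37.9%), with a median of 0.01. EIF6, which keeps the subunits apart, was at 3.47 ± 0.24. The cap-binding protein EIF4E and the start-site factor EIF1AX were at -2.76 ± 0.16 and -2.99 ± 0.14.

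The annotated start of a gene was searched for a C followed by at least 4 pyrimidines. It was found in 22 of 34 large-subunit genes (64.7%), 15 of 20 small-subunit genes (75%), 11 of 14 other TOP genes (78.6%) and 0 of 39 replication-dependent histones, and in 5.45% of the 8979 tested genes with a promoter and 4.04% of all 27305 promoters. Tested genes with such a start had a median log2 ratio of -0.0032 and those without one -0.17. The 30 bases around the start of 5 genes are shown because like runs of pyrimidines went with ratios of both signs (RefSeq, GRCh38.p14, 5′ to 3′ on the gene's strand, with 5 bases before the start; capitals mark the run of pyrimidines from the start base).
RPL18 (chr19:48619154-48619183, minus strand): gttctCTCTTTCCggacctggccgagcagg
EEF2 (chr19:3985439-3985468, minus strand): gcgttCTCTTCCgccgtcgtcgccgccatc
RPS6 (chr9:19380212-19380241, minus strand): tggccCTCTTTTCCgtggcgcctcggaggc
NPM1 (chr5:171387844-171387873, plus strand): gcgtcCTTTCCCTggtgtgattccgtcctg
EEF1A1 (chr6:73521008-73521037, minus strand): acgttCTTTTTCgcaacgggtttgccgcca
RPL18 and EEF2 were higher in footprints, at 3.08 and 1.92, and RPS6, NPM1 and EEF1A1 lower, at -1.36, -4.69 and -6.88.

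Some of the highest ratios belonged to genes that total RNA hardly counted. In 44 of the 10799 tested genes the total RNA count was 0 in all 8 libraries. Of these, 12 are replication-dependent histones and 8 are parts of a readthrough name, a symbol for an RNA that joins 2 neighbouring genes. Among all 10799, 173 are parts of such a name. The span of 6 of the 44 overlaps another protein-coding gene, as does that of 2633 of the 10799. EIF4A1, the helicase of translation initiation, had 529.7 to 774 CPM (median 615) in footprints and 0 in total RNA, at least 5812-fold higher against a floor of 3 counts over the 8 libraries, while its readthrough symbol SENP3-EIF4A1 held 7 total RNA counts over the 8 libraries. By the same measure SLC22A2 was at least 3199-fold, MTPN at least 1353-fold, CATSPER4 at least 797-fold, ROR2 at least 434-fold, PYURF at least 354-fold and SNX15 at least 300-fold higher. PYURF overlaps PIGY in the RefSeq table, and SNX15 is part of ARL2-SNX15, which held 0 total RNA counts. DDX39B, an RNA helicase of mRNA export, had 10 total RNA counts and 2873 footprint counts, and its readthrough symbol ATP6V1G2-DDX39B held 0. EIF4A1 and DDX39B are known as widely expressed genes, and whether their total RNA reads were counted on symbols other than these was not tested.

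At the other end, 4 of the 10 lowest protein-coding genes overlap another protein-coding gene in the RefSeq table. Among them, CAPN12 lies over ACTN4, SNX22 over PPIB and ASB14 over APPL1. CAPN12 had 1 footprint and 2237 total RNA counts in 8 libraries each (438-fold lower, exact interval 78.5 to 17309), and SNX22 had 2 and 3073 (301-fold lower, interval 83.2 to 2486). Whether total RNA reads on these genes came from the partner gene was not tested, and strand was not stated for the counting. Over all tested genes, the 2633 that overlap another protein-coding gene had a median log2 ratio of -0.07 and the other 8166 of -0.16.

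The ratio also followed features of the genes that were looked at after its values were known. With the genes in 5 equal bins by genomic span, from start to end of the gene with introns, the median went from 1.32 in the shortest bin (0.339 to 10.9 kb) through 0.36, -0.11 and -0.61 to -1.0 in the longest (98.3 to 1553 kb), and the share called higher from 56.8% to 7.57%. The Spearman correlation across 10761 genes was -0.43, given as a description. In 5 such bins of promoter GC content the medians stayed between -0.31 and -0.06. Genes with 0 named pseudogenes had a median of -0.09, with 1 of -0.25, with 2 to 4 of -0.37 and with 5 or more of -0.78, and the share called lower went from 28.8% to 44.1%. By chromosome the medians ran from -0.79 on chromosome 18 to 0.87 on chromosome 19. The median span was 33.0 kb over all tested genes, 0.487 kb for the replication-dependent histones, 8.92 kb for the respiratory genes, 8.55 kb for the mitochondrial ribosome, 5.14 and 4.52 kb for the large and small cytosolic ribosomal subunits and 23.6 kb for the zinc finger genes. Within the shortest bin, the 1798 genes of no list had a median log2 ratio of 1.31. In that bin it was 1.44 for 23 immediate early genes and 1.70 for 13 actin, tubulin and intermediate filament genes. It was 2.45 for 10 proteasome genes, 1.84 for 5 glycolysis genes and -0.68 for 6 chaperone genes. It was 6.40 for 42 replication-dependent histones (members with no total RNA count at their bound), 2.58 for 34 respiratory genes and 2.20 for 24 mitochondrial ribosomal proteins. For 37 large- and 23 small-subunit proteins it was -0.17 and 0.70, for 8 members of the uORF list -1.26 and for 58 zinc finger genes -0.21. The shortest bin also varied between total RNA libraries, with a median level 0.32 (log2) above the mean of 8 in replicate 1 of the double modulation and -0.18 in replicate 2.

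**Figure D4:**
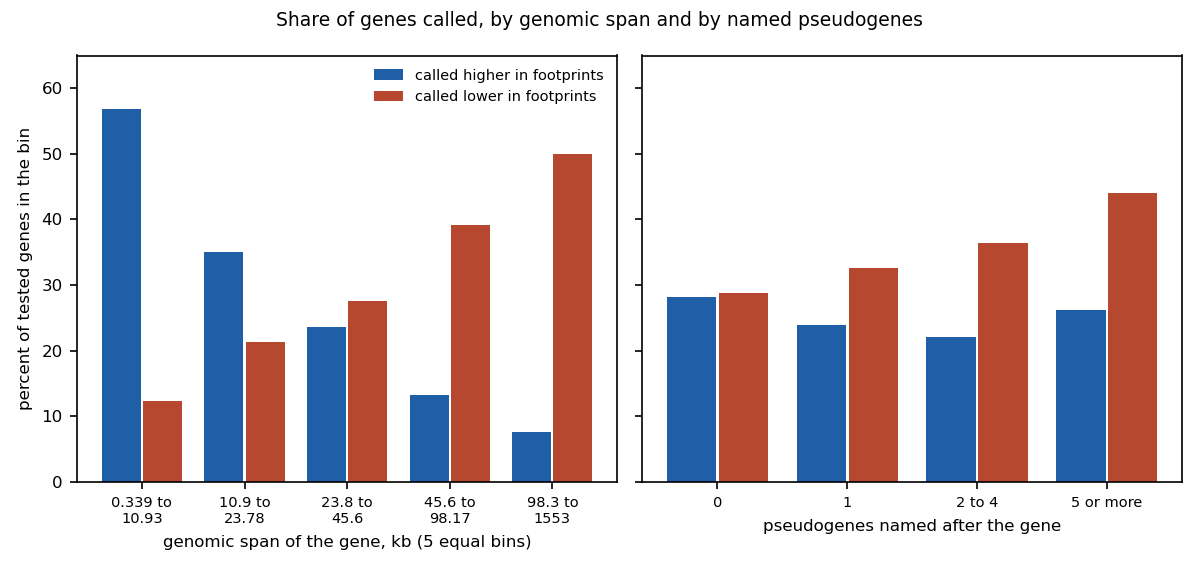
Percent of tested genes called higher (blue) or lower (red) in footprints (vertical), by 5 equal bins of genomic span in kb (left) and by the number of pseudogenes named after the gene (right). Higher calls make up 56.8% of the shortest bin and 7.57% of the longest, and lower calls 28.8% of genes with 0 named pseudogenes and 44.1% of those with 5 or more.

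Noncoding RNAs could hardly be compared, because the footprint files list few of them. Among symbols with a mean of at least 100 total RNA counts, 5803 of 5820 protein-coding symbols have a line in a footprint file, but 3 of 56 long noncoding RNAs, 2 of 11 pseudogenes and 0 of 9 other RNAs. None of the 20 nuclear long noncoding RNAs, 24 small nucleolar RNA host genes and 979 antisense symbols of the lists have one. C6orf48, whose current symbol SNHG32 is that of a small nucleolar RNA host gene, is listed under its older symbol: it had 12 footprints and 1842 total RNA counts in 8 libraries each (-4.88 ± 0.30). For the unlisted symbols, RNAs without footprints and RNAs that were not counted cannot be told apart. Of 9 tested symbols that RefSeq classes as long noncoding, 7 were called lower and 0 higher. Among tested symbols that RefSeq classes as long noncoding or as pseudogenes, C22orf46 was the most abundant in total RNA. It had 0 to 3.43 CPM (median 1.14) in footprints and 68.4 to 94.9 CPM (median 82.8) in total RNA (-5.95 ± 0.24). The 38 tested symbols without a RefSeq match were not ranked. C17orf51 had 7.25 to 15.6 CPM (median 11.9) and 56.5 to 68.3 CPM (median 61.6) (-2.42 ± 0.13).

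The design of the study asks whether the tRNA changes alter ribosome occupancy, and the ratio was therefore tested for a difference between the 4 conditions. By edgeR's F test of the interaction of assay and condition, 0 of 10799 genes passed (0% called at an adjusted p under 0.05); 345 had an unadjusted p under 0.05 (3.19%), and the lowest adjusted p was 1. DESeq2 called 1 gene and the edgeR fit with no filter on low counts called 1. The count depended on the total RNA libraries of the double modulation: it was 46 without replicate 1 and 566 without replicate 2, and between 0 and 566 over all 16 libraries left out in turn. Without either, that total RNA group is a single library, assumed to vary like the other groups; in the fit with 566 calls it is replicate 1, the library furthest from the other 7 for ribosomal proteins. The 3 genes with the smallest p were EEF1G, IQGAP1 and DPH3. EEF1G, a subunit of the elongation factor 1 complex, had log2 ratios of -2.01 in eGFP CRISPRi with the control construct, -1.76 with the tRNA-Ile-UAU construct, -2.79 in tRNA-Ile-GAU CRISPRi and -1.47 in the double modulation (unadjusted p = 0.000131, adjusted p = 1). Data were also simulated at the real library totals, with changes placed in the footprints of the double modulation only. Every gene had the same spread and the same mean share in both assays. There this test recovered 34 of 100 genes changed 2-fold and 82 of 100 changed 4-fold, so a 2-fold difference was more often missed than found. In the data the biological coefficient of variation (spread beyond counting error) was 6.68% in footprints and 14.6% in total RNA, so these shares may not hold for them.

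The log2 ratios of the 10799 genes were ranked much alike in the 4 conditions, with Spearman correlations of 0.947 to 0.961 between pairs of conditions. The median of the replication-dependent histones was 6.94, 6.50, 6.64 and 6.54 in the control, the tRNA-Ile-UAU construct, the tRNA-Ile-GAU CRISPRi and the double modulation, that of the respiratory genes 2.17, 2.32, 2.25 and 1.93, that of the uORF list -1.98, -2.01, -2.11 and -1.85, and that of the zinc finger genes -1.81, -1.74, -1.69 and -1.53. None of these differences between conditions was tested as a list.

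**Figure D5:**
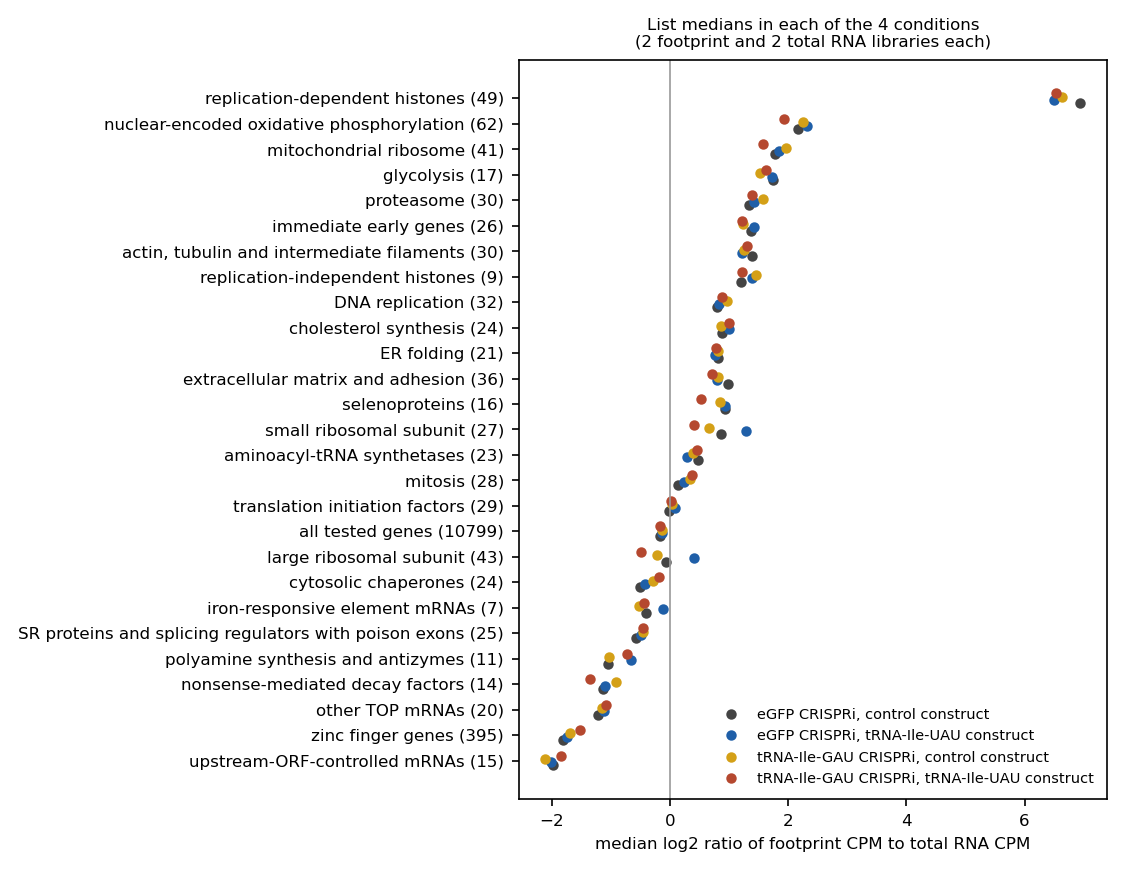
Median log2 ratio of footprint to total RNA CPM (horizontal) of each list in the 4 conditions, 1 dot per condition, with the number of tested genes in brackets. The dots of most lists lie close together; the large ribosomal subunit spreads from -0.49 to 0.40 and the small from 0.40 to 1.29.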

How the data were processed

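Footprints and total RNA were sequenced from 16 libraries of MDA-MB-231 cells in 8 groups of 2. Per the labels' protocols, cells were flash frozen and lysed with cycloheximide, ribosomes were pelleted through sucrose, and RNA was extracted with Trizol and put through a standard Illumina library preparation. Each deposited file holds whole-number, unnormalized counts by symbol. The submitters' processing notes name cutadapt 1.17, STAR 2.5.2a and HTSeq, with hg38 as the build; annotation, settings and strand are not given in the sources used here. Alignments to several places, which are not in the counts, made up 97.0 to 98.8% of the alignments HTSeq saw in footprints and 97.2 to 98.1% in total RNA. Summary lines were dropped. Of reads with a single placement, 24.8 to 32.6% in footprints and 62.2 to 65.0% in total RNA were assigned to no counted feature. Whether these reads lay outside genes is not known, since annotation, settings and strand are not given.

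Genes were filtered with edgeR 4.0.16 (R 4.3.3; filterByExpr, minimum count 10, minimum total 15) and tested by its quasi-likelihood test with condition and assay as terms and library totals over the kept symbols, with 11 residual degrees of freedom. The interaction used group means, with 8. Adjustment was by the Benjamini-Hochberg method over all 10799 genes; a call needs an adjusted p under 0.05 and a 2-fold ratio. Errors are standard errors of the fit. The biological coefficient of variation was 6.68% in footprints, 14.6% in total RNA and 12.7% over both. Tested on simulated data with the same spread for all genes and both assays, the main test passed 92 of 100 genes changed 2-fold, 97 of 100 changed 4-fold and 7 unchanged genes. Intervals and floors cover counting error only.

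The gene lists and members were chosen with earlier results of these data known. Named genes are the 10 protein-coding genes with the highest and the 10 with the lowest ratio among called genes with values apart and a mean of at least 20 CPM in the higher assay, the 5 noncoding genes highest in total RNA, the 2 highest and 2 lowest of each list at a mean of at least 20 CPM, a fixed set, and the 3 smallest interaction p-values; NPM1, RPS3A, TMSB4X and the other members named were named after their values were seen. A few genes that these rules select are not reported here. Positions, promoters and gene classes came from RefSeq (GRCh38.p14), where 12938 of 13804 symbols are current, 818 older and 48 without a match; promoters were found for 8979 of 10799 tested genes. Protein length and composition were not analysed here. Alternatives were other scalings and filters, DESeq2 1.42.0, thinning to 358340 counts, each condition alone and each library left out. Figures were drawn with matplotlib 3.10.9.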

Additional observations from a re-analysis of the deposited data

Results flagged for a closer look

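Symbols with many total RNA counts but no line in any footprint file lie outside the comparison and were singled out for that reason. The mean total RNA count per library was 30169 for MALAT1, 5724.6 for NEAT1 and 4155.9 for LINC00657 (now NORAD), all long noncoding RNAs. Antisense symbols, whose reads cannot be told from those of the partner gene without strand, are left out. TUG1, at 1339, is classed as protein-coding in the RefSeq table and is known as a long noncoding RNA. Among ordinary protein-coding genes it was 1778.6 for TMSB4X, 1438.9 for RPS3A and 1317.9 for HNRNPA3. LOC100128494, at 1086.2, has no match in the reference tables. In all, 12681 symbols are in total RNA files only, 5281 of them with a count, and they took 2.55 to 2.97% of the total RNA counts.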

How the results depend on the processing

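Of the 10799 genes, 6197 were called. The count was 6158 with TMM factors, 6182 with DESeq2, 4748 of 8123 after thinning to the shallowest library, and 6263 without the double modulation, and it ranged from 6110 to 6315 (2877 to 3077 higher, 3209 to 3270 lower) with each library left out in turn. Filters that ask for counts in the assay that is low remove low ratios by construction: at least 10 counts in every footprint library left 3089 calls (1113 lower), and at least 10 in every library, chosen after seeing the data, left 2859 (1746 higher, 1113 lower). Higher calls were then 64.0% and 61.1% of all calls, against 47.6%. The median of all tested genes, -0.14, was 0.024 with no filter, 0.25 and 0.17 with these filters. The histone median was 6.34 with no filter, 6.44 and 4.82 with these filters and 6.44 in eGFP CRISPRi with the tRNA-Ile-UAU construct alone, and the uORF median -1.54, -1.16 and -1.35, and -1.84 in the double modulation alone. The zinc finger median was -1.54 with no filter, -0.72 and -0.72 with these filters, -1.97 after thinning, -1.81 in the control condition alone and -1.51 in the double modulation alone, and the oxidative phosphorylation median 1.93 in the double modulation alone. Apart from the construction of the filters, the cause of these shifts was not tested. With each library left out, these 4 medians kept to 6.61 to 6.77, -2.11 to -1.94, -1.72 to -1.66 and 2.10 to 2.34. AZIN2 was -0.31 in the control condition alone. The interaction called 1 gene by DESeq2, 1 with no filter, and 0 to 566 with a library left out.

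Footprint and total RNA libraries of the same condition and number did not deviate together (correlations -0.022 to -0.001), so the numbers give no pairing. With a replicate block of condition and number in place of condition, 6198 genes were called, 6185 of them the same way as without it, and the interaction called 0; FTL then missed the 2-fold limit, and no other named gene lost its call. Protein length and composition could not be run for want of protein sequences here. Few counts in 1 assay limit some genes: the ratio of a gene with 1 to 3 footprints in 8 libraries is known to no better than its counting interval.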
